A study of Mus musculus with 9 samples.

Results

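The comparison described here set a short hairpin RNA against Csnk1a1, hairpin 94, beside a control hairpin against luciferase (Luc) in mouse leukemia stem cells. It contrasts 6 of the 9 arrays of the study, 3 for each hairpin. Members were chosen by the hairpin named in the sample titles. The other 3 arrays carry hairpin 97, a second hairpin against the same gene. All 9 arrays entered the normalization and the shared spread behind each SE and adjusted p. All 6 samples came from bone marrow of C57BL/6 mice whose leukemia was driven by the MLL-AF9 fusion oncogene and carried an Actin-dsRed reporter, a red fluorescent protein. The leukemia had been passed through serial transplantation to quaternary recipients, and the cells were sorted as dsRed+, low in Hoechst dye, high in c-kit, CD34+ and high in the Fc gamma receptor. So the oncogene, the reporter and the sort are shared by control and knockdown, and only the hairpin differs by the labels. No label ties a group's 3 samples to different animals or cultures. The p-values therefore cover only how far these samples spread, which may be technical. The labels also give no time after delivery of the hairpins and no measurement of Csnk1a1 protein.

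Csnk1a1 encodes casein kinase 1 alpha, which marks beta-catenin for destruction and, together with MDM2 and MDM4, holds the tumour suppressor p53 in check. Loss of the kinase in other settings is known to release both beta-catenin and p53. MLL-AF9 leukemia stem cells resemble granulocyte and monocyte progenitors that are held before maturation, and neutrophils on their way out of that stage load primary granules, then secondary and tertiary granules, with defence proteins. The title of the series names killing of leukemia stem cells through p53 as its subject, and the question here is which transcripts differed with hairpin 94.

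Each array held 45281 probes, and 34885 of them had a single gene symbol in the platform table. A probe was tested when its detection p, the scanner software's measure of signal over negative controls, was under 0.05 on at least 3 of these 6 arrays, which left 10008 probes of 7091 genes. The Luc arrays were dimmer: 9262, 10258 and 10347 probes were detected on them against 13053, 14280 and 13187 on the hairpin 94 arrays. Mean signal was 130.3 ± 1.288 arbitrary units on Luc and 183.5 ± 14.46 on hairpin 94 arrays (SD, n = 3 each), and the groups did not overlap in either measure (two-sided exact permutation p = 0.1, the smallest that 3 against 3 allows). Brightness of the arrays and the hairpin therefore cannot be told apart, and every change below is relative to the other genes of the array after quantile normalization. Correlations between arrays were 0.957 to 0.962 within Luc, 0.982 to 0.987 within hairpin 94 and 0.922 to 0.944 between them.

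The transcript of Csnk1a1 itself could not be followed. Its 1 listed probe passed detection on 0 of 6 arrays (lowest detection p 0.293, highest 0.862), and its signal of 88.51 to 102.4 on Luc arrays overlapped that of 85.47 to 97.65 on hairpin 94 arrays. Knockdown is therefore neither shown nor contradicted by these arrays. Among its relatives, Csnk1d, casein kinase 1 delta, read 9.42, 9.21 and 9.23 normalized log2 units on Luc arrays and 8.34, 8.14 and 8.41 on hairpin 94 arrays. The groups did not overlap, and the gene fell by 0.99 on the log2 scale (SE 0.14, limma adjusted p = 0.000674). Of its 3 other tested probes, those at -0.71 and -0.70 also passed and the one at 0.45 did not. Deposited signal of the leading Csnk1d probe, before scaling, was 387.5 to 422.4 on Luc and 426.1 to 568.7 on hairpin 94 arrays, so the fall is one of rank within the array. Csnk1g3, a gamma isoform, and Csnk2a1, a catalytic subunit of casein kinase 2, escaped detection on Luc arrays; with hairpin 94 they stood at least 1.62-fold and 1.28-fold higher. A probe that no array of a group detected has only a bound there, so folds of such probes are given as at least the stated size, and their fitted values under other settings show only sign and call. Csnk2a1 has a second probe at 0.02 and lost its call with the mean of its probes (0.44, adjusted p = 0.0975) and under cyclic loess (0.35). Scaled to the probes detected on all 6 arrays, Csnk1g3 stood at 0.07 (adjusted p = 0.739) and Csnk2a1 turned to -0.35. Csnk1e at -0.35, Csnk1g2 at -0.08 and Csnk2a2 at 0.45 did not pass, although Csnk2a2 did without Luc replicate 3, at 0.69, and its second probe rose by 0.96.

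Across all tested genes, 1543 rose with hairpin 94 (21.8%) and 1276 fell (18%) at an adjusted p under 0.05, together 39.8% of 7091. Changes past 2-fold were fewer, with 269 rises and 123 falls, and the median change over all genes was 0.0377 log2 units. This balance differed with detection. The rises include 435 genes that no Luc array detected, of 612 such genes tested, and the 19 tested genes that no hairpin 94 array detected all fell. Among the 4706 genes detected on all 6 arrays, 826 rose (17.6%) and 1187 fell (25.2%). In the signals as deposited, 1529 of the 1543 rises were higher on every hairpin 94 array than on any Luc array, whereas only 42 of the 1276 falls were lower on every hairpin 94 array and 746 were higher on every one. A fall in this text thus mostly means a gene whose signal grew less than that of the rest. Scaling to the probes detected on all 6 arrays moved the median of all genes to -0.365 and left 840 rises and 3315 falls, 20.2% of calls higher in place of 54.7%. With no scaling the median was 1.07, and 99.9% of calls were higher. Cyclic loess gave 44.7% of calls higher.

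**Figure D1:**
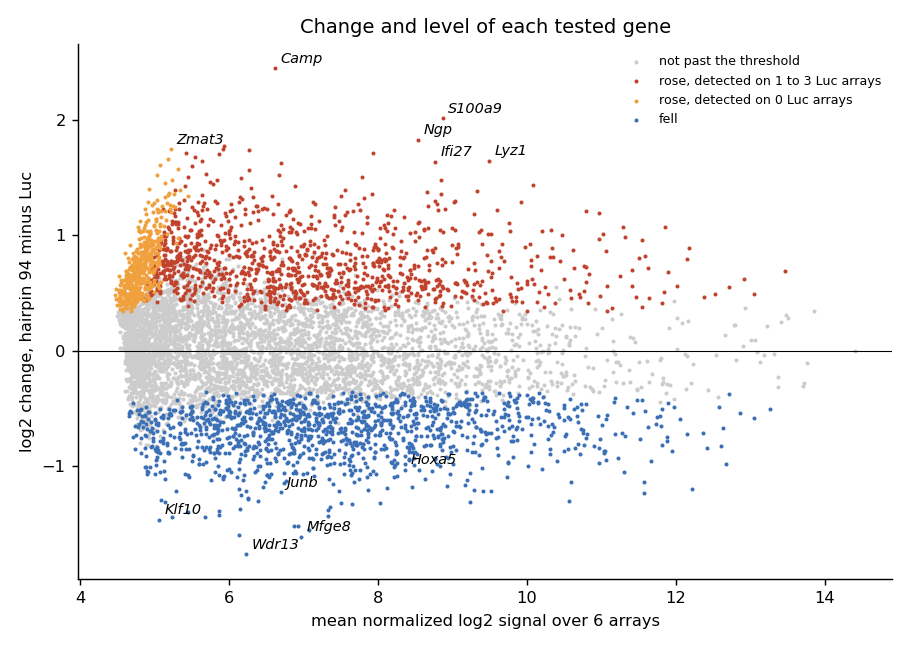
Each point is 1 tested gene: log2 change of hairpin 94 minus Luc (3 arrays each) against its mean normalized log2 signal over the 6 arrays, coloured by call and by detection on Luc arrays. Rises not detected on Luc arrays (435 genes) crowd the dim end, while Camp, S100a9, Ngp and Lyz1 rose at levels that all or most Luc arrays detected; heights of genes undetected on Luc arrays are fitted values, not bounds.

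Genes of the secondary and tertiary neutrophil granules and of calprotectin rose together. This list, like the others below, was chosen with earlier results of these data known, and so were its named members. Of 25 tested members of that list, 19 rose and 1 fell, and the median change was 0.893 (0.681 with the 3 members undetected on Luc at their bound) against 0.0377 over all genes; among the 17 detected on all 6 arrays, 14 rose and 1 fell against a background of 17.6% and 25.2%. Camp, the cathelicidin antimicrobial peptide, read 5.21, 4.76 and 6.18 on Luc arrays, of which 2 detected it, and 8.02, 7.65 and 7.85 on hairpin 94 arrays. No hairpin 94 value came near the highest Luc value, and the change was 5.47-fold (log2 2.45, SE 0.301, limma adjusted p = 0.000412). S100a9, a calprotectin subunit that binds calcium and zinc, read 7.47, 7.98 and 8.13 against 10.09, 9.73 and 9.81, a 4.05-fold rise (SE 0.177 in log2, adjusted p = 0.000128). Ngp, neutrophilic granule protein, read 7.87, 7.41 and 7.57 against 9.66, 9.46 and 9.23, a 3.56-fold rise (SE 0.171, adjusted p = 0.00019). All 3 genes were set apart between the groups by more than 1 log2 unit. In bulk RNA, more cells of a mature type and more transcript per cell cannot be told apart.

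The other named members moved the same way with few exceptions. Cstdc5, a stefin that inhibits cysteine proteases, rose by 1.72, Lrg1, a granule glycoprotein, by 1.13, and Fcnb, the ficolin B pattern receptor, by 1.26 on one probe and at least 2.40-fold on the other, which no Luc array detected. Also chosen after their values were seen, Olfm4 rose by 1.10, Lcn2, which binds iron siderophores, by 0.89, and S100a8, the partner of S100a9, by 0.89. S100a8 was already among the brighter genes, at 11.64, 11.87 and 11.67 on Luc against 12.50, 12.69 and 12.67 on hairpin 94 arrays. Ltf, lactoferrin, which sequesters iron, escaped detection with Luc and stood at least 1.41-fold higher with hairpin 94, though it lost its call under cyclic loess (0.34, adjusted p = 0.109) and turned to -0.15 when scaled to the probes detected on all 6 arrays. Hp, haptoglobin, went the other way on its brightest probe: 12.22, 11.82 and 12.13 against 11.38, 11.36 and 11.51, a fall of 0.64. Its 2 further probes at -0.18 and -0.02 did not pass, and with the mean of its probes the fall of 0.28 did not either (adjusted p = 0.169). Scaling to the probes detected on all 6 arrays gave 16 rises and 5 falls in the list, and leaving out any 1 array left 17 to 20 rises and 1 to 2 falls, 2 falls without Luc replicate 1, Luc replicate 2 or sh94 replicate 1.

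**Figure D2:**
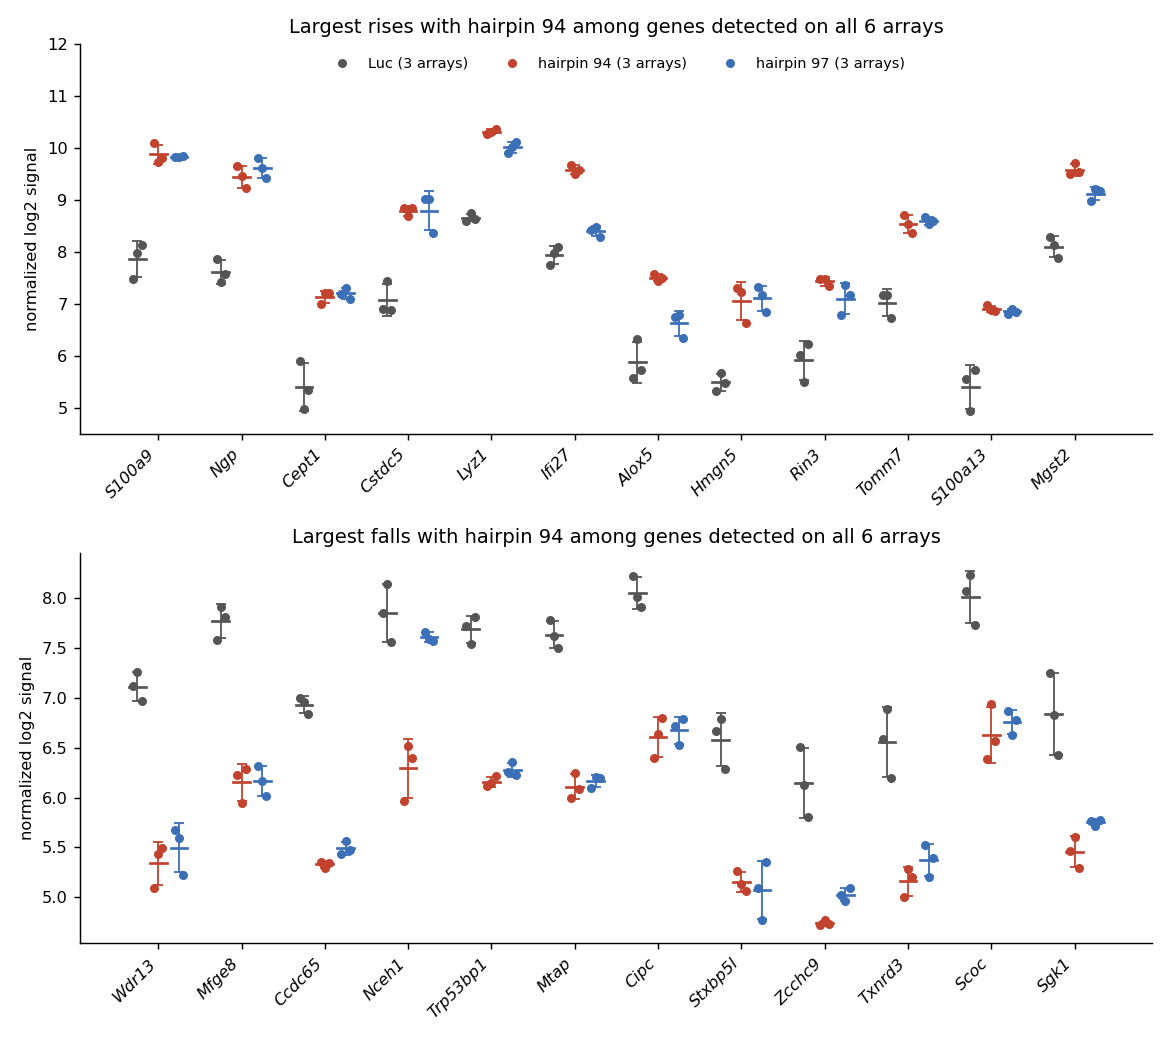
Normalized log2 signal on each array for the 12 largest rises (upper panel) and 12 largest falls (lower panel) among genes detected on all 6 arrays, with 3 arrays per group; bars are the mean and SD. Luc and hairpin 94 values do not overlap for any gene plotted, which the choice of genes required, and the hairpin 97 arrays are shown beside them.

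C/EBP transcription factors drive granule genes in developing neutrophils, and their core letters are TTGCNNAA, read here on both strands. Promoters of 4 risen members, picked among those that hold the letters, are shown with the letters in capitals. Sequences are from RefSeq on GRCm38.p6, 250 bases ending at the base before the annotated start, written 5′ to 3′ on the gene's strand. Ngp lies at chr9:110419558-110419807 on the plus strand, Fcnb at chr2:28084879-28085128 on the minus strand, S100a9 at chr3:90695722-90695971 on the minus strand and Ltf at chr9:111019042-111019291 on the plus strand.
Ngp: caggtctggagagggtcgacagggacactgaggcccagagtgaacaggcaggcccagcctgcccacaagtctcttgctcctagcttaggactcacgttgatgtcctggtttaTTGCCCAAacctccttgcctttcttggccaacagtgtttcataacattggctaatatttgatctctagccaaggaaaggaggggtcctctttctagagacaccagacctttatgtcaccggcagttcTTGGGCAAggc
Fcnb: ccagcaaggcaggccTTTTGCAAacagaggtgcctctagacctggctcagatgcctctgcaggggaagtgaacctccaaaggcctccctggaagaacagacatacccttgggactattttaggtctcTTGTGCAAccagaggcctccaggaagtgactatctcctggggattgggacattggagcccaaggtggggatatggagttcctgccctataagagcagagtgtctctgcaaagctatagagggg
S100a9: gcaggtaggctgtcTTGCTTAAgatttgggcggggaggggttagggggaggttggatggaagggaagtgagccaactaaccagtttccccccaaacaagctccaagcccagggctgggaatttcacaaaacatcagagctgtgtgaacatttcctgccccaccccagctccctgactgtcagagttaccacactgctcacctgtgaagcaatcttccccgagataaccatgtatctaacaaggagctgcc
Ltf: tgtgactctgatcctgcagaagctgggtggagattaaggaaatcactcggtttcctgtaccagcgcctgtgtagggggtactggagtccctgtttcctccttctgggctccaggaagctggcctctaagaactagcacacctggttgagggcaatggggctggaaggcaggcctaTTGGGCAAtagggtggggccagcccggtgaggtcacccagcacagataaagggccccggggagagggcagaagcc
Ngp held the letters at positions -138 and -11 from the start, Fcnb at -235 and -123, S100a9 at -236 and Ltf at -75. Over promoters of 300 bases the letters occurred in 7 of the 18 risen list members with a promoter in the table and in 0 of the 5 that did not pass, against 10.8% of 32851 promoters. Camp and S100a8 were among the risen members without a match. A match of letters is a description of the sequence and not a binding site.

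Of 17 primary granule genes tested, 5 rose and 2 fell, with a median of 0.00942. Those shares were 29.4% and 11.8%, against 21.8% and 18% of all genes. Mpo, myeloperoxidase, read 10.63, 10.71 and 11.13 on Luc and 11.80, 11.77 and 11.87 on hairpin 94 arrays, a rise of 0.99 (SE 0.151, limma adjusted p = 0.000993), and its 3 other probes rose by 1.62, 0.85 and 0.82. Lyz1, a lysozyme that cuts bacterial walls, rose 3.13-fold from 8.60, 8.74 and 8.64 to 10.26, 10.31 and 10.36, and shares much of its sequence with Lyz2, whose own probes rose by 0.50 and, undetected with Luc, at least 1.38-fold, so signal of the pair may mix. The weaker Lyz2 rise lost its call without Luc replicate 3, sh94 replicate 1 or sh94 replicate 2 (adjusted p 0.0553 to 0.0642). Ms4a3, a membrane protein of committed myeloid progenitors, rose by 1.29 on one probe and 0.92 on the other, and Hexa, a lysosomal hexosaminidase, by 1.04. The serine proteases stored in the same granules did not pass: Elane at 0.23, Prtn3 at -0.03 and Ctsg at -0.04. Elane passed in the deposited series matrix values, at 0.25. Calr, the chaperone calreticulin counted with this list, fell by 0.88.

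Components of the phagocyte oxidase, which makes superoxide, moved in both directions. Of 6 tested 2 rose and 2 fell (33.3% each), against 21.8% and 18% of all genes. Ncf1, the organizing subunit p47phox, was not detected on Luc arrays and read 6.2, 5.78 and 6.04 with hairpin 94, at least 2.11-fold higher; pseudogene copies of Ncf1 are known in human. Hvcn1, the proton channel that balances charge, rose by 1.03. Rac1, a GTPase, fell by 0.97, and Cyba, the membrane subunit p22phox, fell by 0.49 but lost its call without sh94 replicate 1 (adjusted p = 0.0535), which left 1 fall. Among myeloid transcription factors 2 of 18 rose and 1 fell (11.1% and 5.56%), against those same shares of all genes. Cebpe, the factor required for secondary granules, read 9.67, 9.69 and 9.80 against 10.19, 10.03 and 10.21, a rise of 0.42 (adjusted p = 0.0198). Its other probes stood at 0.77 and 0.63, which passed, and at 0.01. The call was lost without sh94 replicate 1 (adjusted p = 0.0602), without sh94 replicate 3 (0.0532) and with the replicate number as a block (0.0846). Etv6 was not detected with Luc and was at least 1.14-fold higher, but lost its call under cyclic loess (0.28) and turned to -0.53 when scaled to the probes detected on all 6 arrays. Cebpg, a C/EBP partner without an activation domain, fell by 0.98. Without Luc replicate 2 the list gave 5 rises, and without sh94 replicate 1 or 3 it gave 1.

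Genes for sort markers were listed together with other surface genes of progenitors. Of the sort markers, Kit was at -0.16 and did not pass. Fcgr3, one of the Fc gamma receptors, rose by 1.32 from 6.83, 7.24 and 7.36 to 8.63, 8.34 and 8.44. Il3ra, a chain of the interleukin receptor of early myeloid growth and not among the sort markers named above, fell by 0.69. These were the 1 rise and 1 fall among 12 tested (8.33% each), against 21.8% and 18% of all genes. The fall lost its call without sh94 replicate 1 or 2 (limma adjusted p = 0.0604 and 0.0757). Without Luc replicate 1 the list had 3 falls, and without sh94 replicate 1 it had 2 rises and 0 falls.

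Among genes detected on all 6 arrays, the largest rises outside the granule list were of mixed function. Cept1, an enzyme that completes phosphatidylcholine and phosphatidylethanolamine, read 5.89, 4.97 and 5.33 on Luc and 7.0, 7.21 and 7.20 on hairpin 94 arrays, 3.34-fold. Ifi27, an interferon-inducible membrane protein, rose 3.12-fold from 7.75, 7.98 and 8.09 to 9.67, 9.50 and 9.57, and its second probe rose by 1.97. Alox5, the lipoxygenase that begins leukotriene synthesis, rose 3.10-fold, and its other probes by 0.99 and, undetected with Luc, at least 1.10-fold. The remaining members of the top 15 were Hmgn5, a nucleosome binding protein (2.96-fold), Rin3, an exchange factor for Rab GTPases (2.87-fold), Tomm7, of the outer mitochondrial import channel (2.85-fold), S100a13 (2.83-fold), Mgst2, a membrane glutathione transferase (2.79-fold), Rpl26, a protein of the large ribosomal subunit (2.72-fold), Mrpl27, its mitochondrial counterpart (2.69-fold), and Psenen, a subunit of gamma-secretase (2.63-fold). Limma adjusted p over these 15 lay between 0.000128 and 0.000674.

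**Figure D3:**
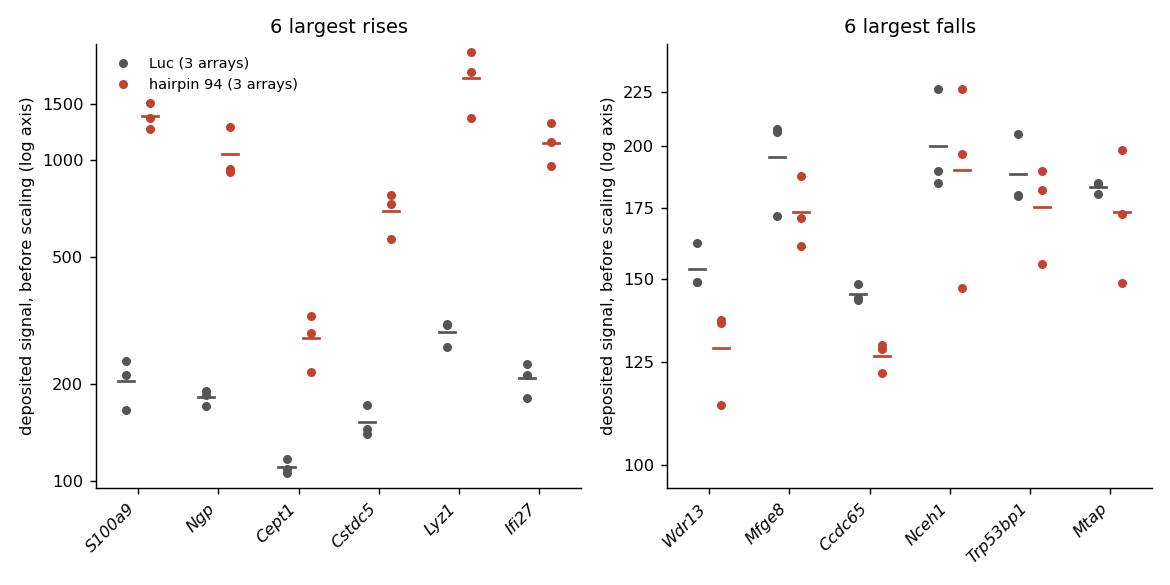
Deposited signal of each array before any scaling (log axis), for the 6 largest rises and the 6 largest falls among genes detected on all 6 arrays, with lines at the group means. Signals of the rises were higher on every hairpin 94 array, whereas among the falls only Wdr13 and Ccdc65 were lower on every hairpin 94 array.

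The largest falls, among genes detected on all 6 arrays, were a mixed group. Wdr13, a nuclear WD-repeat protein, read 7.12, 7.26 and 6.97 on Luc and 5.09, 5.43 and 5.50 on hairpin 94 arrays, a fall of 1.77 (SE 0.168, limma adjusted p = 0.000205). Its deposited signals of 148.8, 162.2 and 148.8 against 113.8, 136.1 and 137.2 were also lower on every hairpin 94 array. Mfge8, the bridging protein by which phagocytes hold dying cells, read 7.58, 7.91 and 7.81 against 6.23, 5.94 and 6.29, a fall of 1.62. Its deposited signals of 172.0, 207.6 and 206.2 against 161.1, 171.2 and 187.7 overlapped. Ccdc65, a protein of motile cilia, fell by 1.60 and was lower in the deposited signals too, at 143.0 to 148.2 against 122.0 to 129.9. Nceh1, a cholesteryl ester hydrolase, fell by 1.56, Mtap, the methionine salvage phosphorylase, by 1.52, and Trp53bp1, which binds broken DNA and p53, by 1.53. A second probe of Mtap at 0.12 and one of Trp53bp1, undetected with Luc, did not pass, so these genes rest on 1 probe each. Next came Cipc, a repressor of the circadian CLOCK factor, with a fall of 1.44, then Stxbp5l at -1.43, Zcchc9 at -1.40, Txnrd3, a thioredoxin reductase, at -1.40, Scoc at -1.39, Sgk1, a serum-induced kinase, at -1.38, Pkn2, a protein kinase, at -1.36, Bag3, a co-chaperone, at -1.33 and Zfyve21 at -1.32. A second Scoc probe, undetected with Luc, did not pass, and a second Pkn2 probe, undetected with Luc, was at least 1.10-fold higher. With no scaling between arrays Wdr13 alone of these 15 kept its call, and Scoc, Pkn2, Bag3 and Zfyve21 turned positive.

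Some genes passed detection in 1 group only. Dtx4, a ubiquitin ligase of the Deltex family, read 6.14, 6.07 and 6.15 with hairpin 94 and was at least 2.28-fold higher, and Rdh12, a retinol dehydrogenase, at least 2.26-fold. Zmat3, an RNA-binding target of p53, read 5.97, 6.18 and 6.13 and was at least 2.24-fold higher. Gon4l, Hsd3b2, Unc13d, which readies cytotoxic and neutrophil granules for release, and Wdfy1 were at least 2.15-fold, 2.06-fold, 2.02-fold and 1.96-fold higher. Wdfy1 lost its call when scaled to the probes detected on all 6 arrays (0.32, adjusted p = 0.0758). On the other side Slc20a1, a phosphate transporter, was at least 2.28-fold lower and Klf10, a factor induced by TGF-beta, at least 2.26-fold lower. Klf10 read 6.2, 5.45 and 5.72 on Luc arrays and no hairpin 94 array detected it; its deposited signals of 111.0 to 122.2 against 91.21 to 94.48 did not overlap. Gm5820, Iqca, Map3k5, a stress kinase upstream of JNK and p38, Pyurf, Psg21 and Spata21 followed at 2.18-fold, 2.05-fold, 1.91-fold, 1.77-fold, 1.77-fold and 1.77-fold, each at least that much lower. Second probes also rose, by 0.48 for Dtx4 and at least 1.14-fold for Unc13d, and one of Pyurf fell by 0.53, while one of Rdh12 stood at -0.34 without passing.

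Where a gene had several tested probes, their agreement was limited. All probes rose for 146 of 2205 such genes (6.62%) and all fell for 54 (2.45%), while 174 had passing probes in both directions. Among genes whose probes all rose, those named were picked by the smallest fitted change of any probe, with no order read from it: Ifi27, Fcnb, Pygl, Cep44, Mgmt, Ctsz, Gga1 and Sun2. Pygl, glycogen phosphorylase, rose by 1.38 and 1.23, Ctsz, a lysosomal peptidase, by 1.08 and 1.24, and Sun2, of the nuclear envelope, by 1.05 and 1.24. The other 3 have 1 probe each that no Luc array detected: Cep44, a centriole protein, rose by 1.20 and at least 1.56-fold, Mgmt, which repairs alkylated guanine, by 1.75 and at least 1.66-fold, and Gga1, a Golgi sorting adaptor, by 1.08 and at least 1.59-fold. Among genes whose probes all fell the same rule named Bex3 (-0.94 and -0.99), Vkorc1l1, a vitamin K epoxide reductase (-0.94 and -1.21), Crtap, a collagen prolyl hydroxylation factor (-0.97 and -0.88), Fpgs, which retains folates in cells (-0.86 and -1.14), Mrgpra2b (-0.85 and -1.18), Yif1a (-0.83 and -0.97), Orc5, of the origin recognition complex (-0.80 and -0.77), and P2rx4, an ATP-gated channel (-0.80 and -0.75). P2rx4 lost its call without Luc replicate 1 or sh94 replicate 1 (adjusted p = 0.0505 and 0.0792), and Cep44 and Gga1 lost theirs when scaled to the probes detected on all 6 arrays. The deposited signals of Bex3 were 350.2 to 416.9 on Luc and 371.9 to 710.7 on hairpin 94 arrays, so this fall too is relative to the array.

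Among genes listed here as p53-activated, 12 of 33 rose (36.4%) and 2 fell (6.06%), where 21.8% and 18% of all genes did. The list's median was 0.332 (0.169 with the 7 undetected on Luc arrays at their bound). But on the 14 detected on all 6 arrays 0 rose and 2 fell, where 17.6% and 25.2% of all such genes did. The rises include Mgmt and Zmat3, described above, and Wrap53, a telomerase factor undetected with Luc, at least 1.39-fold higher, with no call under cyclic loess. They also include Bbc3, which encodes the killer protein PUMA. Bbc3 read 5.0, 5.80 and 5.56 on Luc, where 2 arrays detected it, and 6.38, 6.44 and 6.42 on hairpin 94 arrays, a rise of 0.96 (SE 0.189, adjusted p = 0.00322). The classical feedback and arrest targets did not pass on their brightest probes: Cdkn1a, the cell cycle inhibitor p21, was at 0.17 and Mdm2, the ligase that degrades p53, at -0.11. A second Cdkn1a probe rose by 0.73 and another stood at 0.16, while a second Mdm2 probe fell by 0.61. Ccng1, a cyclin of the p53 response, stood at -0.01 on its brightest probe and rose by 1.60 and 1.58 on the other 2, and Sesn1, a stress-response protein, fell by 0.83 on one probe with 0.31 on the other. When probes of each gene were averaged, Ccng1 rose by 1.06, Cdkn1a by 0.36 (adjusted p = 0.0493), Mdm2 fell by 0.36 (0.0321) and Sesn1 no longer passed (-0.26). The count of rises fell to 6 without sh94 replicate 2 or sh94 replicate 3, to 7 in a fit of the 6 arrays alone and to 4 under cyclic loess; scaling to the probes detected on all 6 arrays turned the split to 3 rises and 10 falls, with Wrap53 at -0.13. Falls numbered 4 without Luc replicate 1 and 1 without sh94 replicate 1 or 3.

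Regulators of p53 gave 1 rise and 3 falls of 11 tested (9.09% and 27.3%), against 21.8% and 18% of all genes. The falls were led by Trp53bp1 and by Hipk2, a kinase that activates p53, at -1.19, whose other probes at 0.14 and -0.31 did not pass. Without Luc replicate 1 the counts were 2 rises and 4 falls. With no scaling Hipk2 turned to 0.24.

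The BCL2 family, whose members promote or block cell death at mitochondria, held 6 rises and 0 falls of 12 tested. These were 50% and 0%, against 21.8% and 18% of all genes. Among the 9 members detected on all 6 arrays 4 rose and 0 fell, where 17.6% and 25.2% of all such genes did. The family's median was 0.497 (0.333 with the 1 undetected on Luc at its bound). The risen genes named here include both promoters and blockers of death. Mcl1, a survival protein, rose 2.54-fold from 5.80, 5.70 and 6.23 to 7.18, 7.32 and 7.27 (SE 0.156 in log2, adjusted p = 0.000361). Bad, which neutralizes survival members, rose 2.04-fold from 6.60, 6.28 and 6.06 to 7.38, 7.36 and 7.30, and Bnip3l, a mitophagy receptor, 1.75-fold from 7.78, 7.97 and 7.94 to 8.59, 8.81 and 8.71. Bbc3, described above and not detected on every Luc array, is another of the 6 risen genes. Scaling to the probes detected on all 6 arrays gave 6 rises and 3 falls, and 1 gene fell without Luc replicate 3. Caspases and apoptosome genes rose in 5 and fell in 3 of 20 cases (25% and 15%), near the 21.8% and 18% of all genes. Casp4, the caspase that senses bacterial lipopolysaccharide inside cells, led the rises at 1.31 (its other probe at -0.22). Ripk3, the necroptosis kinase, was at least 1.30-fold higher and undetected on Luc arrays. Diablo, which relieves caspase inhibition, fell by 0.71. Scaled to the probes detected on all 6 arrays this list turned to 4 rises and 7 falls, with Ripk3 at -0.19.

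Beta-catenin pathway genes gave 1 rise and 4 falls of 9 tested (11.1% and 44.4%), against 21.8% and 18% of all genes. Ctnnb1, beta-catenin itself, read 5.03, 5.74 and 5.09 on Luc arrays, of which 2 detected it, and 5.92, 6.34 and 6.16 on hairpin 94 arrays, a rise of 0.86. One of its other probes rose but no Luc array detected it, and one stood at 0.62 without passing. The call of the leading probe was lost when scaled to the probes detected on all 6 arrays (0.33, adjusted p = 0.0933). Axin1, the scaffold of the destruction complex, read 7.40, 7.57 and 7.36 against 6.92, 6.55 and 6.51, a fall of 0.78, and Btrc, the ligase adaptor that receives phosphorylated beta-catenin, fell by 0.73. Tcf7l1, a repressing partner of beta-catenin, fell by 0.54 but lost its call without Luc replicate 2, Luc replicate 3, sh94 replicate 1 or sh94 replicate 2 (adjusted p 0.0897 to 0.139). Myc, a target of the pathway, was at -0.22 and did not pass, although it did under cyclic loess at -0.43 and scaled to the probes detected on all 6 arrays at -0.99. The falls numbered 2 without Luc replicate 3, sh94 replicate 1 or sh94 replicate 2, and with no scaling the list gave 5 rises and 0 falls.

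The MLL-AF9 and self-renewal list held 2 rises and 5 falls of 20 (10% and 25%), against 21.8% and 18% of all genes. Of its 14 members detected on all 6 arrays 2 rose and 4 fell, where 17.6% and 25.2% of all such genes did. Hoxa5, a homeobox gene of the fusion's program, read 8.83, 8.95 and 8.85 on Luc and 7.58, 7.83 and 8.11 on hairpin 94 arrays, a fall of 1.03 (SE 0.148, adjusted p = 0.000725). Its deposited signals, 294.0 to 346.9 against 287.3 to 475.6, overlapped. Aff4, an elongation factor scaffold that partners MLL fusions, fell by 0.92 and Eya1, a phosphatase and coactivator, by 0.89, with a second Eya1 probe at 0.07. Kdm1a, a histone demethylase, rose by 0.65. Hoxa9, a central target of the fusion, was at -0.38 with its other probe at -0.42, and passed only without sh94 replicate 1, at -0.56. Meis1, its partner, rose by 0.41 on one probe with -0.34 on the other, and lost the call without Luc replicate 1, sh94 replicate 2 or sh94 replicate 3. Ezh2, a histone methyltransferase, fell by 0.69 and lost the call without any 1 of the arrays except sh94 replicate 1. Falls numbered 3 without sh94 replicate 3, rises 1 without Luc replicate 1, sh94 replicate 2 or sh94 replicate 3, and with no scaling the list turned to 15 rises and 0 falls.

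Of 21 Toll-like receptor pathway genes, 8 rose and 1 fell, but among the 11 detected on all 6 arrays 2 rose and 1 fell, where 17.6% and 25.2% of all such genes did. Nlrx1, a mitochondrial brake on this signalling, rose by 1.77 on one probe and at least 1.32-fold on the other, undetected with Luc, and Irak3, a kinase-dead inhibitor of the receptors, rose by 1.71. Of the 3 Luc arrays, 2 detected the leading Nlrx1 probe and 1 detected Irak3. The rises numbered 4 without Luc replicate 1, 4 without sh94 replicate 2 and 3 without sh94 replicate 3, with 0 falls without Luc replicate 1 or sh94 replicate 2, and scaling to the probes detected on all 6 arrays gave 4 rises and 5 falls. Interferon response genes rose in 8 and fell in 2 of 19 cases (42.1% and 10.5%), against 21.8% and 18% of all genes. Of the 10 detected on all 6 arrays 4 rose and 2 fell. Oas1g, a sensor of double-stranded RNA, rose by 1.06 (other probe -0.04), Irgm1, an immunity GTPase, by 1.04 (other probe 0.29), and Eif2ak2, the kinase PKR, fell by 1.00. That list gave 1 fall without Luc replicate 1, Luc replicate 3 or sh94 replicate 3, and 4 rises and 8 falls with the same scaling. Of 14 immediate early genes 3 rose and 4 fell (21.4% and 28.6%), against 21.8% and 18% of all genes. Dusp6, a phosphatase of ERK, rose by 1.51 from 5.15, 4.45 and 4.49 to 6.25, 6.18 and 6.18 with detection on 1 Luc array, and Junb, an AP-1 factor, fell by 1.23 from 7.48, 7.44 and 7.04 to 5.93, 6.15 and 6.18. Without Luc replicate 3 that list had 6 rises.

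Genes of the ATF4 response to amino acid shortage divided. Of 24 tested, 9 rose (37.5%) and 3 fell (12.5%), where 21.8% and 18% of all genes did. The list's median was 0.331 (0.242 with 2 at their bound). Of the 20 detected on all 6 arrays 7 rose and 3 fell, where 17.6% and 25.2% of all such genes did. Atf4 itself read 8.35, 8.06 and 8.07 on Luc and 9.59, 9.36 and 9.61 on hairpin 94 arrays, 2.56-fold (SE 0.153 in log2, adjusted p = 0.000361), and its second probe rose by 0.70. Asns, asparagine synthetase, rose 2.28-fold from 8.53, 8.58 and 8.98 to 10.03, 9.70 and 9.92, with 0.45 on its second probe, and Herpud1, a factor of protein disposal at the endoplasmic reticulum, rose by 0.83 and 1.33. Trib3, a pseudokinase target of ATF4, was also risen at 0.65, with one further probe at -0.03 and another that passed but was undetected with Luc. Ddit3, which encodes CHOP, went the other way, from 6.62, 7.11 and 7.04 to 5.98, 5.82 and 6.44, a fall of 0.85, as did Slc7a11, the cystine transporter, at -0.85 (other probe -0.52, not passed) and Cebpg at -0.98. Scaling to the probes detected on all 6 arrays gave 7 rises and 8 falls. Promoters of Asns, at chr6:7693210-7693459 on the minus strand, and Herpud1, at chr8:94386179-94386428 on the plus strand, are shown from RefSeq on GRCm38.p6 in the same layout, with the letters TGATGNAA, the core shared by ATF4 and CHOP sites, in capitals on either strand.
Asns: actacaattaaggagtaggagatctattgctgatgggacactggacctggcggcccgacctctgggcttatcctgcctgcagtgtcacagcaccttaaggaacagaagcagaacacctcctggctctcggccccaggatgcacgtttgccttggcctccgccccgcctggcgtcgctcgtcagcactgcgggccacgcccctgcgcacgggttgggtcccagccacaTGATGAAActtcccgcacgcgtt
Herpud1: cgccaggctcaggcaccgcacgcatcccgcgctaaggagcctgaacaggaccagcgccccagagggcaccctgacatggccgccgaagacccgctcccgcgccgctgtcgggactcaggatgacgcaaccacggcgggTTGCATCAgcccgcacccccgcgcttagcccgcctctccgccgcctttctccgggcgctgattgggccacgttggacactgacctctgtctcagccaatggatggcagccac
The letters begin at -23 in Asns and at -112 in Herpud1. They occurred in 5 of the 8 risen members with a promoter, 1 of the 3 fallen and 1 of the 10 that did not pass, against 4.0% of all 32851 promoters. Asns and Herpud1 were picked among the risen members that hold the letters, and Atf4, Psat1 and Ppp1r15a held none.

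Unfolded protein response genes rose in 5 and fell in 4 of 19 cases (26.3% and 21.1%), near the 21.8% and 18% of all genes. Hsp90b1, the chaperone GRP94, rose by 0.70, while Dnajc10, a disulfide reductase, fell by 1.22 and Pdia5, a disulfide isomerase, by 1.08 with -0.02 on its other probe. The rises there numbered 3 without Luc replicate 2 or sh94 replicate 1 and 2 without sh94 replicate 2. Lysosomal genes rose in 8 and fell in 3 of 22 cases, led by Ctsb, cathepsin B, at 1.36, Ctsz and Hexa. Glycolysis gave 5 rises and 3 falls of 17, with Aldoa, an aldolase, at 1.30, Aldoc, its isoform, at 1.00, Pgk1, phosphoglycerate kinase, at 0.93 and Pfkp, a phosphofructokinase, at -0.84 (other probe -0.53, not passed). In cholesterol synthesis 5 of 20 rose and 3 fell (25% and 15%), again near the shares of all genes. Pmvk, phosphomevalonate kinase, was at least 1.81-fold higher and undetected on Luc arrays, Msmo1, a sterol oxidase, rose by 1.29, and Insig1, the sterol sensor that restrains the pathway, fell by 0.98. The rises of that list numbered 3 without sh94 replicate 1 or 3. Scaled to the probes detected on all 6 arrays, these lists turned to more falls than rises for the unfolded protein response (5 and 9), glycolysis (4 and 5) and cholesterol synthesis (4 and 10), and not for lysosomal genes (7 and 6).

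Beside the counts that follow, 21.8% of all genes rose and 18% fell. The proteasome (28.1% and 21.9%), antioxidant (20.8% each) and heat shock (26.3% and 21.1%) lists lay near those shares. Oxidative phosphorylation gave 9 rises and 6 falls of 28, with Cox6a1 at -1.14 (other probe 0.31) and Cox6c at 1.02, both subunits of cytochrome oxidase, and 5 rises without sh94 replicate 1. The proteasome gave 9 rises and 7 falls of 32, with Psme1, an interferon-induced activator, at 1.27 and Psmb2, a core subunit, at -1.06, and 4 falls without Luc replicate 3 or sh94 replicate 1. Antioxidant genes gave 5 of each among 24, led by Mgst2 at 1.48, Gstp1 at -1.02 and Gstm1 at 1.02, all transferases of glutathione, and 2 to 3 falls without any of the arrays other than sh94 replicate 2. Ribosome biogenesis gave 7 rises and 3 falls of 28. Bop1, of the large subunit pathway, rose by 1.12 but not under cyclic loess (0.54, adjusted p = 0.0505), Rrp1b fell by 1.00 and 1.08 on 2 probes with 0.11 and 0.28 on the others, and the list had 1 fall without sh94 replicate 1. Heat shock proteins gave 5 rises and 4 falls of 19, with 2 rises without sh94 replicate 2 and 3 without sh94 replicate 3. Genes for the uptake of dying cells gave 3 rises and 3 falls of 12, the falls led by Mfge8. Monocyte and macrophage genes gave 2 rises and 0 falls of 8, with 0 rises without sh94 replicate 1 or 2, 1 rise without sh94 replicate 3 and 1 fall without Luc replicate 2.

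Of 42 replication genes 12 rose and 9 fell (28.6% and 21.4%), near the 21.8% and 18% of all genes. Cdc6, which loads the replicative helicase, was undetected with Luc and at least 1.54-fold higher, but lost its call under cyclic loess (0.30, adjusted p = 0.211), and Lig1, the ligase of lagging strands, rose by 0.71 and 0.54 on 2 probes, with at least 1.14-fold on a further one undetected with Luc. Gins1 and Gins2, subunits of that helicase complex, fell by 0.79 and 0.85, though 2 further Gins2 probes stood at 0.45 and 0.21. Mitotic genes rose in 2 and fell in 5 of 32 cases. Ncapd2, a condensin subunit, rose by 0.85. Birc5, survivin, fell by 0.78 with -0.52 and -0.18 on its other probes, Ckap2 by 0.73, Aurka, a spindle kinase, by 0.72 and Plk1, its partner kinase, by 0.61. Among G1 regulators 3 of 18 rose and 2 fell, and Cdkn1c, the inhibitor p57, fell by 0.95. Replication rises numbered 5 without sh94 replicate 2, mitotic rises 1 without sh94 replicate 1 or 2 and 4 without Luc replicate 2 or 3, and G1 rises 1 without sh94 replicate 1 or 2. G1 falls numbered 1 without any single array other than Luc replicate 2; scaled to the probes detected on all 6 arrays replication gave 8 rises and 14 falls and G1 2 and 7.

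**Figure D4:**
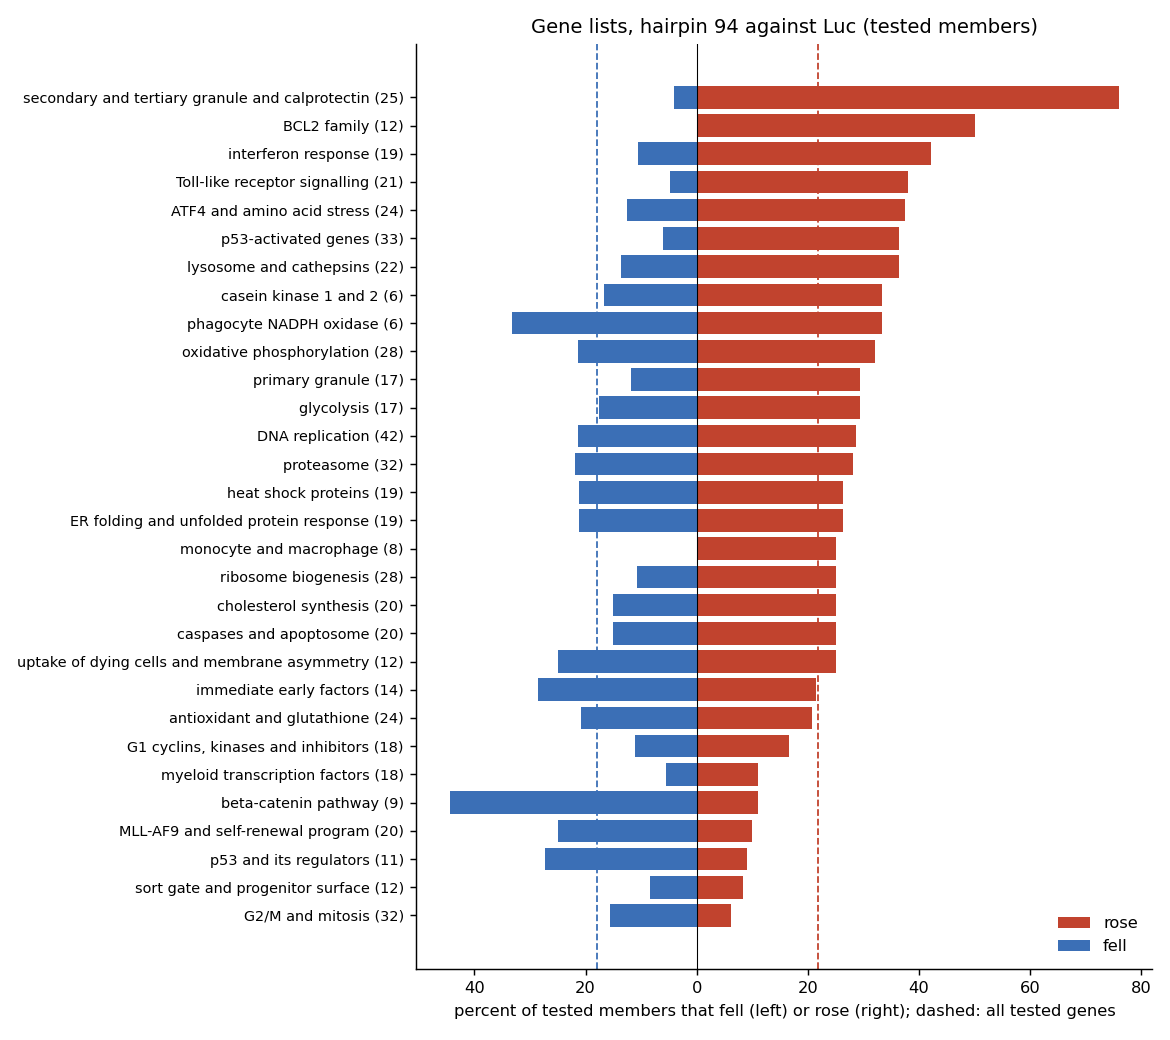
Percent of the tested members of each gene list that rose (right) or fell (left) with hairpin 94 against Luc, with the number tested in brackets and dashed lines at the shares over all 7091 genes, 21.8% and 18%. The granule and calprotectin list has the longest bar of rises, 76%; under scaling to the probes detected on all 6 arrays it has 16 rises and 5 falls, while the p53 list turns to 3 rises and 10 falls.

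Most markers of other blood cells were undetected on all 6 arrays, and most stromal and endothelial markers fell short of the detection rule for testing. Of lineage markers with a probe, 10 of 14 for T and NK cells, 7 of 10 for B cells, 7 of 11 for red cells and 5 of 8 for platelets were detected on 0 of the 6 arrays, including Cd3d, Cd3g, Cd8a, Ms4a1, Alas2 and Pf4. Mast cell, basophil and eosinophil markers were detected on 0 arrays in 8 of 14 cases, and their summed deposited signal was 1772 to 1832 on Luc and 2179 to 2569 on hairpin 94 arrays. Stromal and endothelial markers were detected on 0 arrays in 5 of 14 cases and on at least 3 of the 6 arrays in 3. Their summed signals were 1369 to 1459 on Luc and 1518 to 1569 on hairpin 94 arrays. Of 3 stromal and endothelial markers tested 1 rose, and of 6 mast cell, basophil and eosinophil markers 2 rose and 2 fell. The 1 erythroid marker tested fell by 0.875. No tested T and NK, B cell or platelet marker passed. Markers expected of the leukemia cells were tested in 10 of 12 cases, with a summed signal of 4584 to 5275 against 10450 to 14490; the single probe for Ptprc, the pan-leukocyte CD45, was detected on 0 arrays. Summed signals of T and NK markers were 1652 to 1722 on Luc and 1973 to 2119 on hairpin 94 arrays, of B cell markers 948.8 to 1034 and 1039 to 1126, of erythroid markers 1959 to 2139 and 2101 to 3189, and of platelet markers 746.2 to 822.6 and 768.3 to 821.4. The T and NK, B cell, mast cell, stromal and leukemia sums and the brightness of the arrays were thus higher on every hairpin 94 array than on any Luc array. The part of the marker sums in the granule result was not tested. With each array's count of detected probes as covariate, 0 of the 25 granule and calprotectin genes rose and 0 fell, with a median of 1.1. That covariate follows the groups, so brightness and the hairpin are still not told apart.

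The 3 arrays of hairpin 97 allow the 2 hairpins to be compared with each other without the control. In a direct contrast, 22 of the 10008 probes differed, 4 higher (0.04%) and 18 lower (0.18%) with hairpin 97, and 945 had an unadjusted p under 0.05. They belong to 21 genes. Zmat3, detected on all arrays of both hairpins and on none with Luc, differed by -1.16 (SE 0.136, limma adjusted p = 0.0093). For Ifi27 the changes against the same Luc arrays were 1.64 with hairpin 94 and 0.46 with hairpin 97, and the difference was -1.18, with -1.27 on its second probe. Nceh1 stood at -1.56 and -0.24, a difference of 1.32. Selplg, the ligand of P-selectin, Tomm22, of mitochondrial import, Tram1, of secretory translocation, and Pon2, a lactonase, rose by 1.09, 1.11, 1.23 and 0.86 with hairpin 94 and stood at 0.32, 0.20, 0.40 and 0.05 with hairpin 97. For another set hairpin 94 stayed near Luc: Ccl4 and Ccl9, chemokines, were at 0.16 and 0.16 against -1.47 and -1.11, Ccnd2, cyclin D2, at 0.03 against -1.22, and Tgm2, a transglutaminase, at 0.26 against 1.69. Second probes with hairpin 94 stood at 0.37 for Ccl4 and at 0.57 for Ccnd2, the latter past the threshold. Camp at 2.45 and 3.04, S100a9 at 2.02 and 1.97 and Ngp at 1.83 and 2.00 did not pass the contrast, which does not show that the hairpins act alike on them.

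**Figure D5:**
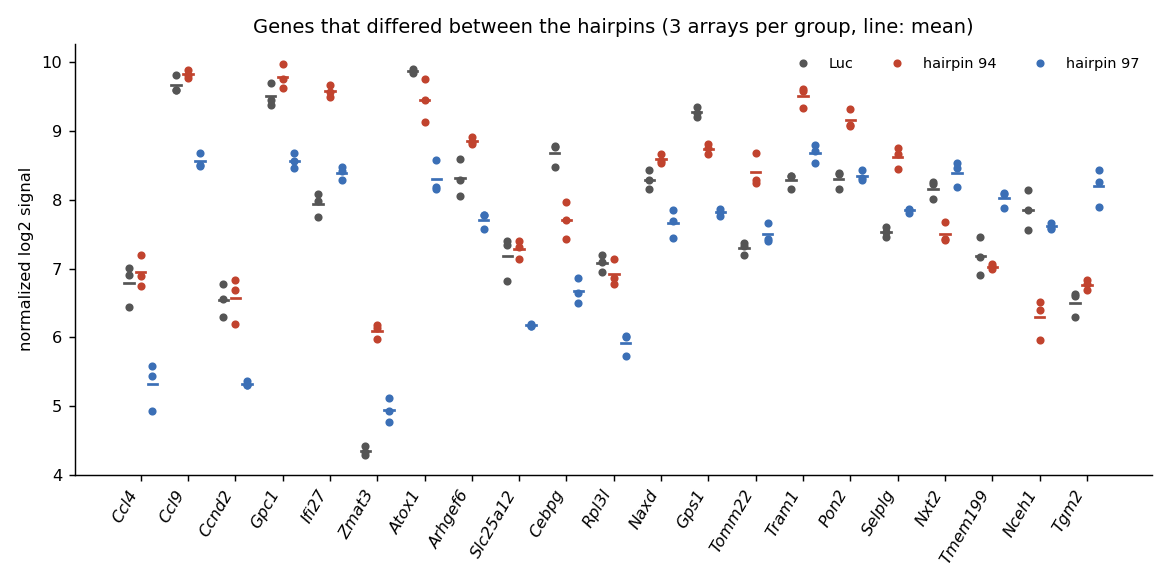
Normalized log2 signal on each array (lines are means of 3) for the 21 genes whose probe passed the contrast of hairpin 97 against hairpin 94. Zmat3, Ifi27, Selplg, Tomm22, Tram1 and Pon2 were higher with hairpin 94 than in both other groups, and Ccl4, Ccl9 and Ccnd2 were lower with hairpin 97.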

How the data were processed

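RNA of the sorted cells was extracted with Trizol, labelled with biotin and hybridised to Illumina bead arrays, per the labels' protocols. The deposited tables hold, per the file headers, a signal intensity and a detection p-value for each probe; scanner software and settings: not given in the sources used here. The series matrix as deposited by the authors ranks probes as the intensities do (rank correlation 1) and has a median of 6.612, so it was taken as log2 values, with its normalization unstated. Table columns of no sample numbered 0. Signals were background-corrected by normexp with an offset of 16, quantile-normalized and put on the log2 scale with neqc in limma 3.58.1 (R 4.3.3), over all 9 arrays. Detection p-values stood in for negative control probes. A gene was represented by its brightest probe. The lmFit and eBayes fit took all 9 arrays, with a mean for each group and a shared spread. Benjamini-Hochberg adjustment ran over all tested probes at 0.05. Bounds set the bright group against the lowest detected signal of the dim arrays. No slide or scan date was found, so no batch was tested.

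Named genes are the casein kinases, the 15 largest rises and falls detected on all 6 arrays with groups apart, the 8 largest detected in 1 group only, the 8 with several agreeing probes, and up to 6 risen or fallen members of each list with well-known members that did not pass. The members and lists were chosen with earlier results of these data known. Alternatives were other background corrections, scalings, detection filters, probe summaries, a covariate, a replicate block and each array left out. The fit was tested on simulated data. Promoters are RefSeq's on GRCm38.p6.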

Additional observations from a re-analysis of the deposited data

Results flagged for a closer look

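In 21 genes the change with hairpin 94 differed from that with hairpin 97 by the direct limma contrast (adjusted p under 0.05, 3 arrays each), given here as hairpin 97 minus hairpin 94 in log2 units. Lower with hairpin 97 were Ccl4 (-1.63), Ccl9 (-1.27), Ccnd2 (-1.25), Gpc1 (-1.22), Ifi27 (-1.18), Zmat3 (-1.16), Atox1 (-1.15), Arhgef6 (-1.14), Slc25a12 (-1.11), Cebpg (-1.03), Rpl3l (-1.01), Naxd (-0.929), Gps1 (-0.92), Tomm22 (-0.91), Tram1 (-0.835), Pon2 (-0.811) and Selplg (-0.778). Higher with hairpin 97 were Tgm2 (1.43), Nceh1 (1.32), Tmem199 (0.995) and Nxt2 (0.888). Among probes without a single gene symbol, which no comparison used, 185 were detected on 3 of 3 hairpin 94 and 0 of 3 Luc arrays, and 6 the other way round.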

How the results depend on the processing

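The balance of rises and falls moved with the scaling, the detection filter and the averaging of probes. Genes higher with hairpin 94 numbered 1543, and 840 when scaled to the probes detected on all 6 arrays, 5830 with no scaling, 936 among probes detected on all 6 arrays and 0 with each array's count of detected probes as covariate (803 at an unadjusted p under 0.05 in limma). Genes lower numbered 1276, and 3315, 5 and 0 with those scalings and the covariate. For probes, 2371 were higher, and 1446 under cyclic loess, 1123, 8136, 1238 and 0 in the same order; 1540 were lower, and 4823, 5 and 0. The covariate follows the groups, since the Luc arrays detected fewer probes. Probes that differed between the hairpins numbered 22, and 133 with no background correction, 179 under cyclic loess and 148 in the deposited series matrix; the cause was not tested. Leaving out 1 array gave 1114 (without sh94 replicate 2) to 1660 genes higher, 935 (without sh94 replicate 1) to 1304 lower, 1752 to 2551 probes higher and 1132 to 1602 lower. Whether the replicate numbers pair the samples was not settled. Same-numbered arrays had deviations correlated at 0.0722, 0.0586 and 0.154, and differently numbered ones at -0.144 to 0.0798. With the replicate number as a block, 998 genes were higher, 829 genes lower and 980 probes lower.

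A change of sign was counted only where the gene passed in the main fit or in the alternative. Flips of genes that passed in neither were not counted. Among the named genes, 60 changed sign with no scaling, where the median of all genes was 1.07, and 8 of these lay above that median. Their log2 values were Atox1 0.96, Aurka 0.67, Axin1 0.65, Bag3 0.11, Bex3 0.49, Birc5 0.63, Btrc 0.57, Calr 0.55, Ccng1 1.44, Cdkn1c 0.37, Cebpg 0.45, Ckap2 0.58, Cox6a1 0.32, Crtap 0.44, Csnk1d 0.44, Csnk1e 1.03, Csnk1g2 1.30, Ctsg 1.40, Cyba 0.90, Ddit3 0.52, Diablo 0.73, Dnajc10 0.14, Eif2ak2 0.45, Eya1 0.51, Ezh2 0.72, Fpgs 0.57, Gins1 0.65, Gins2 0.53, Gps1 0.88, Gstp1 0.38, Hipk2 0.24, Hoxa5 0.39, Hoxa9 1.05, Hp 0.83, Il3ra 0.72, Insig1 0.0604, Junb 0.16, Kit 1.29, Mdm2 1.31, Mrgpra2b 0.46, Nxt2 0.78, Orc5 0.66, P2rx4 0.13, Pdia5 0.29, Pfkp 0.58, Pkn2 0.069, Plk1 0.83, Prtn3 1.18, Psmb2 0.34, Rac1 0.31, Rpl3l 1.27, Rrp1b 0.43, Scoc 0.053, Sesn1 0.62, Slc7a11 0.13, Tcf7l1 0.22, Tmem199 1.28, Vkorc1l1 0.50, Yif1a 0.59 and Zfyve21 0.12. Scaled to the probes detected on all 6 arrays, Cdc6 was -0.0695, Csnk2a1 -0.35, Etv6 -0.53, Ltf -0.15, Ripk3 -0.19 and Wrap53 -0.13. The covariate turned Ezh2 to 0.27, Rrp1b to 0.089 and Spata21 to 0.013, and the mean of a gene's probes turned Ccng1 to 1.06; the cause was not tested. By that count no named gene changed sign under cyclic loess, a neqc offset of 50, no background correction, no detection filter or the 6 arrays alone. The same held for the block, the series matrix and any array left out. In simulated data of 10008 probes with 200 of them changed, 69% of log2 changes of 1 and 4% of changes of 0.5 were recovered. In the real fit 23.7% of probes passed as higher and 15.4% as lower, so its adjusted threshold was less strict. The simulated shares are therefore not the recovery of these data.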
